A study of Mus musculus with 6 samples.

Results

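Limb identity and patterning factors were examined in ciCPCs, chemically induced cardiovascular progenitors that small molecules produce from mouse fibroblasts. The set was a given list of 9 transcription factor genes, Tbx4, Pitx1, Alx1, Alx4, Msx1, Msx2, Lmx1b, Shox2 and En1, out of 53801 genes in the count files. The list was drawn up with the difference between passages known, so the changes of these 9 genes are described without a p-value and support nothing beyond themselves. RNA was sequenced from 3 libraries at passage 3 and 3 at passage 20. All 6 were labelled as wild-type cardiac progenitors of a mixed C57BL/6 and 129J/SvE background. Both groups grew after colony picking in a medium holding SU5402 (an FGF receptor inhibitor), CHIR99021 (which blocks glycogen synthase kinase), Activin A and BMP4. The labels do not say whether replicates were separate cultures or whether passage 20 descends from the passage 3 colonies, so the p-values rest on a spread that may be technical, and effects of passage and of culture cannot be told apart.

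The limb bud grows out from lateral plate mesoderm, and its pattern is set along several axes. Pitx1 and Tbx4 specify the hindlimb, and Tbx5 acts in their place in the forelimb. Alx1, Alx4 and Shox2 are homeobox genes of limb and craniofacial mesenchyme, Msx1 and Msx2 respond to BMP signalling, Lmx1b gives limb mesenchyme its dorsal identity, and En1 marks the ventral ectoderm. Several of these genes are also used in the heart: Shox2 acts in the sinoatrial node, and Msx1 and Msx2 in the cushions and outflow tract.

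Each library held between 11387738 and 17721788 counts in genes. Levels are TMM-normalised CPM, which are counts scaled to a common library total and composition, given as mean ± SD with n = 3 per passage. At passage 20, 5604 of the 15143 tested genes were called higher (37%) and 5641 lower (37.3%), 74.3% in all (edgeR quasi-likelihood, Benjamini-Hochberg, threshold 0.05). Scaled by library size only, genes called higher numbered 3528 and genes called lower 8273, and the median over all tested genes shifted by -0.33 on the log2 scale, so changes are relative to the TMM scaling. Replicate 3 of passage 20 stood apart: its counts differed from those of replicates 1 and 2 with a chi-square per degree of freedom of 10.6 and 8.74, against 1.77 to 2.67 for the other pairs within a passage. Of the 9 cardiac progenitor markers examined (Isl1, Nkx2-5, Gata4, Mef2c, Hand2, Tbx5, Tbx20, Kdr and Pdgfra), 4 rose, 5 fell and 0 were below 1 CPM in every library, and their summed level lay between 866 and 891 CPM at passage 3 and between 714 and 801 CPM at passage 20.

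The 9 factors together took 871, 894 and 869 CPM in the passage 3 libraries and 292, 318 and 387 CPM in the passage 20 libraries. Of the 9, 8 passed the filter on low counts, and all of these 8 were lower at passage 20, by 1.38-fold to 27.8-fold. The 9th, En1, did not pass and was scarce in both passages, which overlapped. Among all genes tested, 37.3% were called lower, 39.3% had every passage 20 library below every passage 3 library and 38.3% the reverse. All 8 factors were called lower and without overlap, but that contrast chose them, and Alx1 and Lmx1b passed the filter only through their counts at passage 3. The median log2 difference of the 8 was -1.63, against -0.01 over all genes tested, and 6 of the 8 were at least 2-fold lower, against 14.4% of all genes tested. In RNA from whole cultures, fewer cells of a type and less RNA per cell cannot be told apart.

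**Figure D1:**
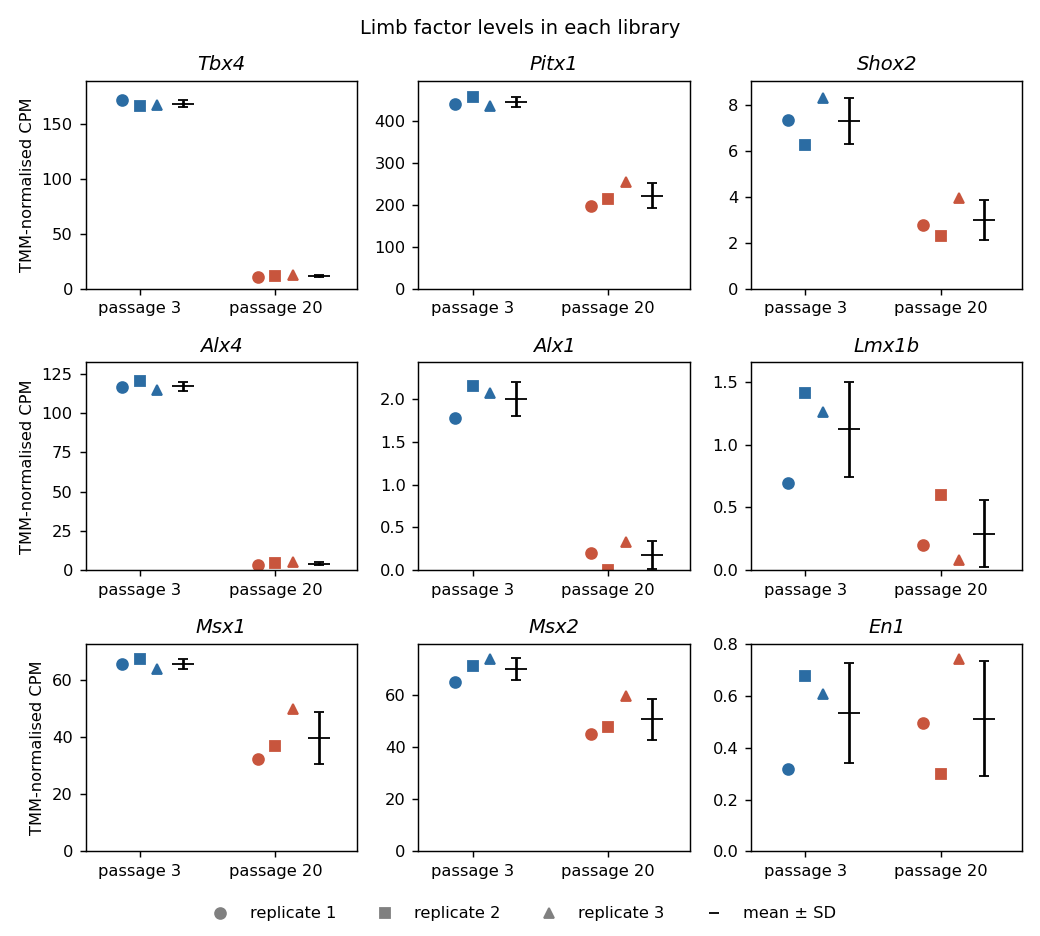
Level of each of the 9 limb factors in each library, in TMM-normalised CPM on a linear axis from 0, with passage 3 in blue, passage 20 in red, symbols for replicates, and the mean ± SD (n = 3) in black. Tbx4 and Alx4 sit near the bottom of their axes at passage 20, Pitx1, Msx1 and Msx2 remain well above 0, and the passages overlap for En1.

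The sequence before the RefSeq start was available for 6 of the 9 genes (Tbx4, Msx1, Msx2, Lmx1b, Shox2 and En1; build GRCm38.p6, 250 bases each). The sequences given are those of Tbx4, which was 14.4-fold lower at passage 20, Msx1, which was 1.64-fold lower, and En1, whose passages overlapped, so that a gene of each behaviour can be compared. For Msx2 only a short stretch is given, around the single TAATTA found in these windows, and the En1 window is given up to the first annotated exon. Capitals mark letter matches, on either strand, to TAATTA (a homeodomain core), TAATCC (a bicoid-type site, bound by Pitx proteins), AGGTGTGA (a T-box half-site), CANNTG (E-box), CCAAT and TATAAA. The matches do not overlap one another.
Tbx4, chr11:85896515-85896764, plus strand: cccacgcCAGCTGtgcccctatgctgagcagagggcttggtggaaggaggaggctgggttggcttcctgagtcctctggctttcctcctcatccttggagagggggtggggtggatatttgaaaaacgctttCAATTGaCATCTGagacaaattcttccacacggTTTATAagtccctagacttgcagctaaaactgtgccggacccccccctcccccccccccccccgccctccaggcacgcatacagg
Msx1, chr5:37824586-37824835, minus strand: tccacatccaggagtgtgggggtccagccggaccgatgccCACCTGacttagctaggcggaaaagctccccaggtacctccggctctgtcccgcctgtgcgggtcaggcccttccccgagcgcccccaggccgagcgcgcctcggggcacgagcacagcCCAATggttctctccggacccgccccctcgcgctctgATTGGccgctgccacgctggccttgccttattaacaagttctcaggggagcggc
En1, chr1:120602237-120602417, plus strand: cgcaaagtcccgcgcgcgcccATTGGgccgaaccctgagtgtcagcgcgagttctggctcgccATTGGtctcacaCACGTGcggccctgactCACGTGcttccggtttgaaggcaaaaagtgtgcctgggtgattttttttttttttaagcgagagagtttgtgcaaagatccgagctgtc
Msx2, chr13:53472950-53472979, minus strand: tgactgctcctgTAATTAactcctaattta

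The Tbx4 window held 3 E-boxes and 1 TATAAA match, 85 bases before the start, and no CCAAT. The Shox2 window likewise held 1 TATAAA match, 203 bases before the start, and no CCAAT, and the Lmx1b window 2 CCAAT matches and 1 E-box. The Msx1 window held 2 CCAAT matches and 1 E-box, the En1 window 2 CCAAT matches and 2 E-boxes, and the Msx2 window 1 CCAAT match, 1 E-box and the TAATTA. Tbx4 also had the fewest CpG dinucleotides, 6 in 250 bases, against 11 in Shox2, 16 in Msx2, 19 in Lmx1b and En1 and 20 in Msx1, where the median of 32851 promoter windows was 6. TAATCC and AGGTGTGA were not in any of the 6 windows. Over all windows, 4.84% held TAATTA, 6.25% TAATCC, 1.12% AGGTGTGA, 66.2% an E-box, 33.8% CCAAT and 12.4% TATAAA, so these matches are a description of the letters and not of binding. The Tbx4 window lies inside the annotated gene, before a downstream start, and all of the Msx2 window lies within an exon of the GENCODE annotation, which starts that gene further upstream.

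Pitx1 (ENSMUSG00000021506, chromosome 13, 55825051 to 55836192, minus strand), the homeobox gene that specifies hindlimb, was the most abundant of the 9 in every library. Its level was 442, 459 and 437 CPM in the passage 3 libraries and 197, 215 and 255 CPM in the passage 20 libraries. All passage 20 libraries lay below all passage 3 libraries, and replicate 3 was the highest of passage 20. The mean went from 446 ± 11.3 to 223 ± 29.6 CPM, 2.00-fold lower (log2 -1.0, SE 0.083). Pitx1 shares exon sequence with Gm47071, an antisense RNA with 120, 126 and 141 counts at passage 3 and 69, 57 and 75 at passage 20, and with the long noncoding RNA Gm28760, so a small part of its reads is uncertain.

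Tbx4 (ENSMUSG00000000094, chromosome 11, 85886422 to 85916097, plus strand), the hindlimb T-box gene that acts downstream of Pitx1, changed far more than Pitx1. It lay at 172, 167 and 168 CPM in the passage 3 libraries and at 10.7, 11.5 and 12.7 CPM in the passage 20 libraries. The libraries of a passage lay close together and the passages were far apart. From 169 ± 2.98 to 11.7 ± 1.03 CPM, Tbx4 was 14.4-fold lower (log2 -3.85, SE 0.073). Per kilobase of exon, Tbx4 stood at 0.296 ± 0.0107 of the Pitx1 level at passage 3 and at 0.0411 ± 0.00179 at passage 20. The forelimb gene Tbx5 was at a low level in both passages, and the per-kilobase ratio of Tbx4 to Tbx5 went from 28.2 ± 1.24 to 3.31 ± 0.433.

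Alx4 (ENSMUSG00000040310, chromosome 2, 93642384 to 93681339, plus strand), a paired-type homeobox gene of anterior limb mesenchyme that limits Shh expression there, had the largest difference of the 9. The passage 3 libraries held 116, 120 and 115 CPM and the passage 20 libraries 3.27, 4.28 and 4.93 CPM. No passage 20 library reached 5 CPM, from a count of 33 to 60 reads each. The mean went from 117 ± 2.73 to 4.16 ± 0.839 CPM, 27.8-fold lower (log2 -4.80, SE 0.10). Alx4 overlaps Ext2 on the opposite strand without sharing an exon, and Ext2 held 2120, 2286 and 2815 counts at passage 3 and 1798, 1770 and 2001 at passage 20.

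Alx1 (ENSMUSG00000036602, chromosome 10, 102998707 to 103030215, minus strand), a relative of Alx4 known for craniofacial mesenchyme, was scarce from the start. Its counts were 28, 35 and 41 at passage 3 and 2, 0 and 4 at passage 20. These counts correspond to 2.00 ± 0.201 CPM and 0.176 ± 0.166 CPM, 10.4-fold lower (log2 -3.37, SE 0.46). With 6 counts in all at passage 20 the size is poorly fixed: the Alx1 log2 fold change was -4.24 without passage 20 replicate 3, -2.86 without passage 20 replicate 2 and -1.53 on the deposited log2 values.

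Shox2 (ENSMUSG00000027833, chromosome 3, 66971727 to 66981771, minus strand), which patterns the proximal limb skeleton and the sinoatrial node, was at 7.35, 6.28 and 8.29 CPM at passage 3 and at 2.77, 2.29 and 3.95 CPM at passage 20. The passages did not overlap, and replicate 3 was the highest in both. The mean went from 7.31 ± 1.00 to 3.00 ± 0.853 CPM, 2.40-fold lower (log2 -1.27, SE 0.20). Shox2 shares exon sequence with Rsrc1 on the opposite strand, which had 863, 902 and 1053 counts at passage 3 and 615, 580 and 634 at passage 20. Whether reads were counted by strand is not stated, so the Shox2 level is uncertain. In a list of 8 sinoatrial node genes, 1 rose, 3 fell and 2 of 6 tested did not pass, with a summed level of 73.8 to 76.9 CPM at passage 3 and 71.1 to 84.0 CPM at passage 20, and Kcne1 and Vsnl1 were below 1 CPM in every library. Its part in the Shox2 level was not tested.

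The paired genes Msx1 and Msx2, homeobox factors that respond to BMP signals at the limb margin, had the smallest differences among the 8 tested. Msx1 (ENSMUSG00000048450, chromosome 5, 37820485 to 37824583, minus strand) was at 65.5, 67.3 and 63.6 CPM at passage 3 and at 32.3, 36.7 and 49.9 CPM at passage 20. The passage 20 libraries were spread over a wider range than the passage 3 libraries, with replicate 3 nearest to passage 3. From 65.5 ± 1.84 to 39.6 ± 9.18 CPM, Msx1 was 1.64-fold lower (log2 -0.72, SE 0.13).

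Msx2 (ENSMUSG00000021469, chromosome 13, 53466884 to 53473074, minus strand) was at 65.0, 70.8 and 73.6 CPM at passage 3 and at 44.8, 47.4 and 59.4 CPM at passage 20. Again replicate 3 was the highest at passage 20, although it stayed below every passage 3 library. From 69.8 ± 4.36 to 50.5 ± 7.74 CPM, Msx2 was 1.38-fold lower (log2 -0.46, SE 0.10). Per kilobase of exon, the ratio of Msx1 to Msx2 was 1.07, 1.01 and 0.916 in the passage 3 libraries and 0.762, 0.819 and 0.890 in the passage 20 libraries. That ratio was lower in each passage 20 library than in any passage 3 library, by far less than the ratio of Tbx4 to Pitx1.

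The dorsoventral pair was almost silent. Lmx1b (ENSMUSG00000038765, chromosome 2, 33560965 to 33640511, minus strand), the LIM-homeobox gene of dorsal mesenchyme, had 11, 23 and 25 counts at passage 3 and 2, 6 and 1 at passage 20. At 1.13 ± 0.379 and 0.292 ± 0.270 CPM it was 3.97-fold lower (log2 -1.99, SE 0.54), and the Lmx1b log2 fold change was -2.99 without passage 20 replicate 2, -1.51 without passage 20 replicate 3 and -0.80 on the deposited log2 values.

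En1 (ENSMUSG00000058665, chromosome 1, 120602418 to 120607992, plus strand), the homeobox gene of ventral limb ectoderm, had 5, 11 and 12 counts at passage 3 and 5, 3 and 9 at passage 20. The passages overlapped, at 0.534 ± 0.191 and 0.511 ± 0.221 CPM. En1 was in no test because its counts were below the filter. Fitted without the filter, its log2 change was -0.07 with an SE of 0.51, so this depth leaves its change poorly fixed. Of 9 genes of surface ectoderm and epithelium, 5 rose and 1 fell, beside 37% higher and 37.3% lower over all genes tested. The other 3 (Krt5, Trp63 and Grhl2) were below 1 CPM in every library. The summed level was 109 to 114 CPM at passage 3 and 180 to 212 CPM at passage 20. Most of it was Krt8 and Krt18, with means of 34.7 and 43.7 CPM at passage 3 and 78.1 and 66.7 CPM at passage 20. The gene that fell was Krt14, 16.1-fold, with 933 counts at passage 3 and 36 at passage 20. Of 10 midbrain and hindbrain genes, where En1 and Lmx1b are also used, 6 (Pax2, Pax8, Gbx2, En2, Wnt1 and Sox1) were below 1 CPM in every library. Against the same shares over all genes, 2 of the 4 tested rose, 1 fell and 1 did not pass. Their list summed to 63.6 to 69.4 CPM at passage 3 and 101 to 106 CPM at passage 20. Most of these sums was Otx2, which rose from a mean of 60.2 to 94.8 CPM. Sox2 also rose, and Pax5 fell from 74 counts at passage 3 to 0 at passage 20.

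**Figure D2:**
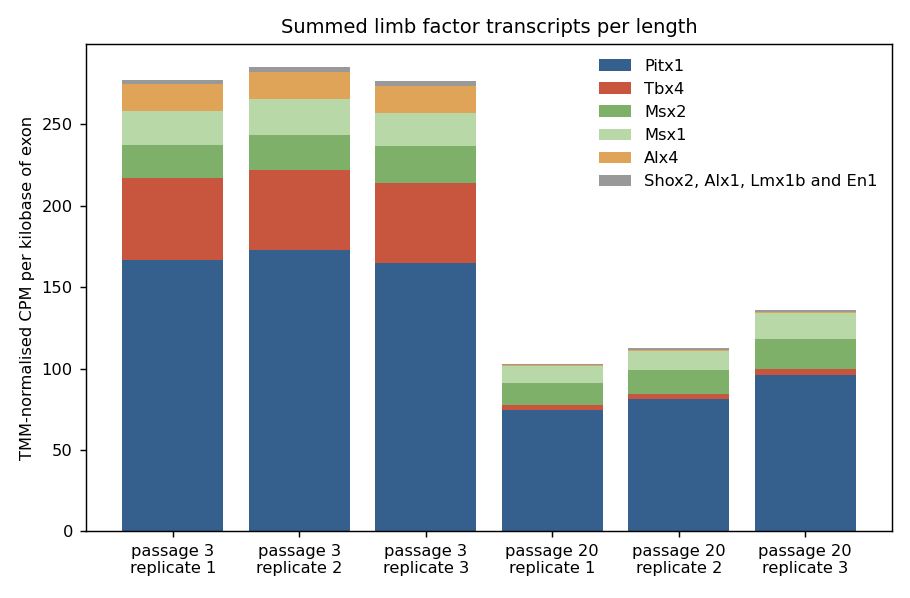
Stacked level of the 9 limb factors in each of the 6 libraries, in TMM-normalised CPM per kilobase of exon on an axis from 0, with Shox2, Alx1, Lmx1b and En1 drawn together. The stack falls from 277 to 285 at passage 3 to 103 to 136 at passage 20, and the Tbx4 and Alx4 layers nearly disappear.

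Set side by side per kilobase of exon, the order of the factors changed. At passage 3 it was Pitx1 (168 ± 4.26 CPM per kilobase), Tbx4 (49.7 ± 0.877), Msx2 (21.3 ± 1.33), Msx1 (21.1 ± 0.594), Alx4 (16.6 ± 0.387), Shox2 (2.21 ± 0.303), Alx1 (0.348 ± 0.0349), Lmx1b (0.231 ± 0.0777) and En1 (0.203 ± 0.0728). Msx2 and Msx1 overlapped there, as did Lmx1b and En1. At passage 20 it was Pitx1 (83.8 ± 11.1), Msx2 (15.4 ± 2.36), Msx1 (12.8 ± 2.96), Tbx4 (3.43 ± 0.303), Shox2 (0.907 ± 0.258), Alx4 (0.589 ± 0.119), En1 (0.195 ± 0.0843), Lmx1b (0.0599 ± 0.0553) and Alx1 (0.0305 ± 0.0288), with overlap between Msx2 and Msx1, between Shox2 and Alx4, between En1 and Lmx1b, and between Lmx1b and Alx1. Tbx4 thus went from the second to the fourth place. As a share of the summed level, Tbx4 went from 17.8% ± 0.532 to 2.94% ± 0.165 and Alx4 from 5.92% ± 0.0453 to 0.500% ± 0.0464, while Pitx1 went from 60.1% ± 0.543 to 71.6% ± 0.944.

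Passage 20 replicate 3 was the highest of its passage for 7 of the 8 factors tested, all but Lmx1b, where 39.5% of all genes tested had it highest. Relative to the mean of replicates 1 and 2, its level was 1.15-fold for Tbx4, 1.24-fold for Pitx1, 1.29-fold for Msx2, 1.31-fold for Alx4, 1.45-fold for Msx1, 1.56-fold for Shox2, 3.32-fold for Alx1 and 0.207-fold for Lmx1b, the last 2 from at most 6 counts a library, against a median of 0.998 over all genes tested. Without that library the log2 changes of Pitx1, Msx1 and Msx2 were -1.13, -0.94 and -0.61. What sets the library apart was not tested.

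In a chosen list of 11 close relatives of these factors, 8 were tested, and 0 rose and 8 fell, where 37.3% of all genes fell. The median log2 change was -1.31, against -0.01 over all genes tested. This list was chosen with earlier results of these data known, so its counts are a description and no separate support. On the same libraries, 0 rose and 8 fell as well at an unadjusted p under 0.05 by edgeR, and with DESeq2 after adjustment. Without the low-count filter, 1 rose and 8 fell. Prrx2, a paired-type homeobox gene, fell 3.98-fold from 99.9 ± 14.0 to 25.1 ± 1.21 CPM, and Tbx3, a limb and sinoatrial T-box gene, 2.88-fold from 203 ± 2.33 to 70.1 ± 10.9 CPM. Smaller falls were those of Tbx5 (1.66-fold, 8.24 ± 0.266 to 4.92 ± 0.997 CPM) and the limb mesenchyme gene Prrx1 (1.45-fold, 396 ± 11.8 to 273 ± 5.83 CPM). Adjusted p-values of these 4 relatives were at most 0.00122 (edgeR quasi-likelihood, Benjamini-Hochberg).

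The 3 relatives not tested, Msx3, Lmx1a and En2, had 2, 8 and 6 counts in all 6 libraries together. Msx3 had 2 counts at passage 3 and 0 at passage 20, Lmx1a 1 and 7, and En2 2 and 4. None of them passed the filter. More distant relatives, picked here after their values were seen, were not all lower: the T-box genes Tbx15 and Tbx18 did not pass the test (log2 -0.40 and 0.20), and the LIM-homeobox gene Lhx2 rose 3.91-fold (adjusted p 5.04e-06, edgeR quasi-likelihood, Benjamini-Hochberg).

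**Figure D3:**
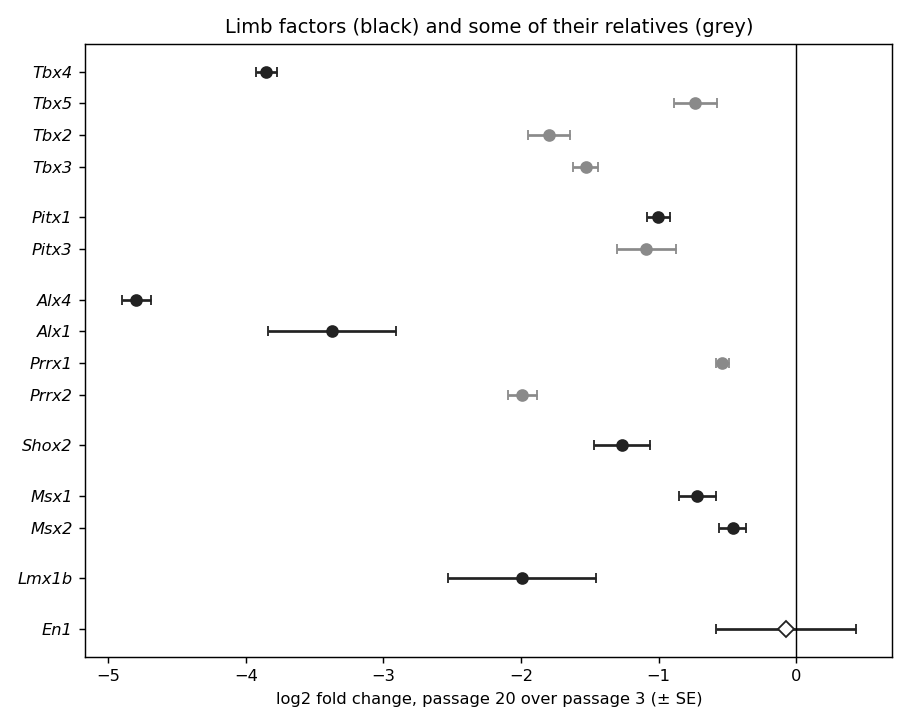
Log2 fold change of passage 20 over passage 3 (x axis, ± SE) for the limb factors in black and some of their tested relatives in grey, grouped by family. Filled black points come from the fit on genes past the low-count filter and the open diamond for En1 from the fit without it. Every point but En1 lies clearly below 0, with Alx4 and Tbx4 furthest. The relatives drawn were taken from the list of close relatives, whose tested genes all fell. Tbx15, Tbx18 and Lhx2 are not drawn.

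In the list for limb bud initiation and limb type, 7 of 15 genes rose, 7 fell and 1 did not pass, with a median log2 change of 0.20. Over all genes tested, 37% rose and 37.3% fell. Isl1, needed to start the hindlimb and a marker of the second heart field, fell 8.44-fold from 63.2 ± 5.72 to 7.45 ± 0.534 CPM, and Sall1, a zinc finger gene, 2.45-fold. Meis2, a proximal limb homeobox gene, rose 1.98-fold from 40.2 ± 2.26 to 79.8 ± 6.89 CPM, Zbtb16 3.58-fold and Fgf10, the mesenchymal signal of limb outgrowth, 1.97-fold from 9.85 ± 0.664 to 19.4 ± 1.89 CPM. For each of these 5 genes the adjusted p was at most 1.28e-05 (edgeR quasi-likelihood, Benjamini-Hochberg).

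Of 22 tested genes for signals of the posterior margin and the distal ridge, 9 rose, 8 fell and 5 did not pass, near the shares over all genes tested (37% and 37.3%), with a median log2 change of 0.23. Shh, the signal of the posterior margin, had 0 counts in every library, which allows up to 0.0579 CPM at passage 3 and 0.0928 CPM at passage 20 (3 counts over each group, counting error only). Its receptor and target gene Ptch1 rose 1.70-fold, its effector Gli3 fell 1.5-fold from 165 ± 1.88 to 110 ± 14.0 CPM, and Grem1, the BMP antagonist of the limb bud, rose 1.52-fold from 51.0 ± 4.65 to 77.8 ± 7.25 CPM. Fgf8, a ridge signal, rose 2.77-fold from 7.32 ± 0.668 to 20.3 ± 3.30 CPM, while Fgf9 fell 15.4-fold from 10.7 ± 0.674 to 0.694 ± 0.201 CPM. The receptor gene Fgfr2 fell 2.12-fold and Cyp26b1, which degrades retinoic acid in the distal limb, 3.99-fold; the feedback inhibitor gene Spry1 rose 2.17-fold. Adjusted p-values of these 8 signalling genes reached at most 7.00e-05 (edgeR quasi-likelihood, Benjamini-Hochberg). Hand2, which positions Shh, was at 151 ± 4.34 and 179 ± 5.29 CPM, with an adjusted p of 0.00113 by edgeR's test, but its log2 change of 0.24 turned to -0.090 with library sizes only.

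Among dorsoventral and apical ridge factors, 5 of 14 tested rose, 7 fell and 2 did not pass (median -0.13), beside 37% higher and 37.3% lower over all genes tested. Wnt7a, the dorsal ectoderm signal upstream of Lmx1b, had 2 counts in all, both in passage 20 replicate 3. Ldb2, a cofactor of LIM-homeodomain proteins such as Lmx1b, fell 8.35-fold from 22.8 ± 0.534 to 2.72 ± 0.0676 CPM, and the homeobox genes Dlx2 and Dlx5 fell 3.84-fold and 5.14-fold. Ldb1, a more abundant relative of Ldb2, fell 1.26-fold from 217 ± 7.01 to 173 ± 17.4 CPM. Wnt3 rose 6.58-fold, Bmp7 2.53-fold and Bmp4 1.72-fold from 35.6 ± 1.74 to 61.2 ± 6.29 CPM. The adjusted p was 0.00113 for Ldb1 and at most 7.78e-06 for the 6 others named as fallen or risen (edgeR quasi-likelihood, Benjamini-Hochberg).

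Of 19 limb mesenchyme transcription factors tested, 12 fell, 5 rose and 2 did not pass, with a median log2 change of -0.73, beside 37.3% lower and 37% higher over all genes tested. Without passage 20 replicate 3, 14 fell and 4 rose, where genes called lower numbered 6266 and genes called higher 6103 of 15701. Osr2 fell 6.45-fold from 36.3 ± 0.402 to 5.63 ± 0.0394 CPM, and the Iroquois genes Irx5 and Irx3 fell 7.70-fold and 4.41-fold. Barx1 rose 7.34-fold to 6.14 ± 0.342 CPM, Scx, a tendon factor, 4.51-fold to 25.6 ± 5.44 CPM, and Snai1 2.49-fold. Adjusted p-values of these 6 genes did not exceed 1.72e-06 (edgeR quasi-likelihood, Benjamini-Hochberg). Sox9, the cartilage regulator, was at 59.8 ± 5.06 and 35.6 ± 14.1 CPM with an adjusted p of 0.0341 by edgeR's test; 5 of 13 alternatives, leaving out either passage 3 replicate 2 or 3 or passage 20 replicate 1 or 2 among them, ended its call (adjusted p up to 0.155). Of 8 cartilage genes, 4 rose, 2 fell and 1 of 7 tested did not pass, with summed levels of 234 to 263 CPM at passage 3 and 273 to 289 CPM at passage 20, and Matn1 was below 1 CPM in every library. Most of these sums was Sox6, which did not pass the test (136 ± 7.82 and 147 ± 7.74 CPM). The 4 that rose included Acan (14.5-fold) and Col9a1 (7.85-fold), and the 2 that fell were Col2a1 (1.69-fold) and Sox5 (1.31-fold).

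Msx1 and Msx2 respond to BMP, and a list of 15 other BMP response genes had 6 higher, 5 lower and 4 that did not pass (median -0.03), near the shares of 37% and 37.3% over all genes tested. Id4 fell 16.6-fold from 17.6 ± 0.631 to 1.04 ± 0.226 CPM, Sp7, an osteoblast factor, 8.66-fold and the BMP Smad gene Smad9 1.48-fold. Hey1 rose 3.00-fold, the inhibitory Smad gene Smad7 2.28-fold and Hand1 2.11-fold. Their adjusted p-values were at most 0.000199 (edgeR quasi-likelihood, Benjamini-Hochberg). Id1, a direct BMP target, was at 79.3, 73.6 and 77.6 CPM at passage 3 and at 38.2, 42.1 and 81.6 CPM at passage 20, so passage 20 replicate 3 alone lay at the passage 3 level. Its adjusted p was 0.169 with all libraries and 3.62e-16 without that one (edgeR quasi-likelihood, Benjamini-Hochberg), over a range up to 0.371 among the alternatives. Without that library the list had 4 higher and 7 lower.

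Over 98 different genes, the 6 lists had 86 tested members, of which 32 rose, 40 fell and 14 did not pass, beside 37% higher and 37.3% lower over all genes tested, with a median log2 change of -0.25. In a list of 10 neural crest and craniofacial mesenchyme genes, where Alx and Msx genes are also used, Sox10, Foxd3, Tfap2b and Pax7 were below 1 CPM in every library, 2 rose, 3 fell and 1 did not pass; its summed level was 128 to 145 CPM at passage 3 and 134 to 148 CPM at passage 20. The ranges of the passages overlapped.

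**Figure D4:**
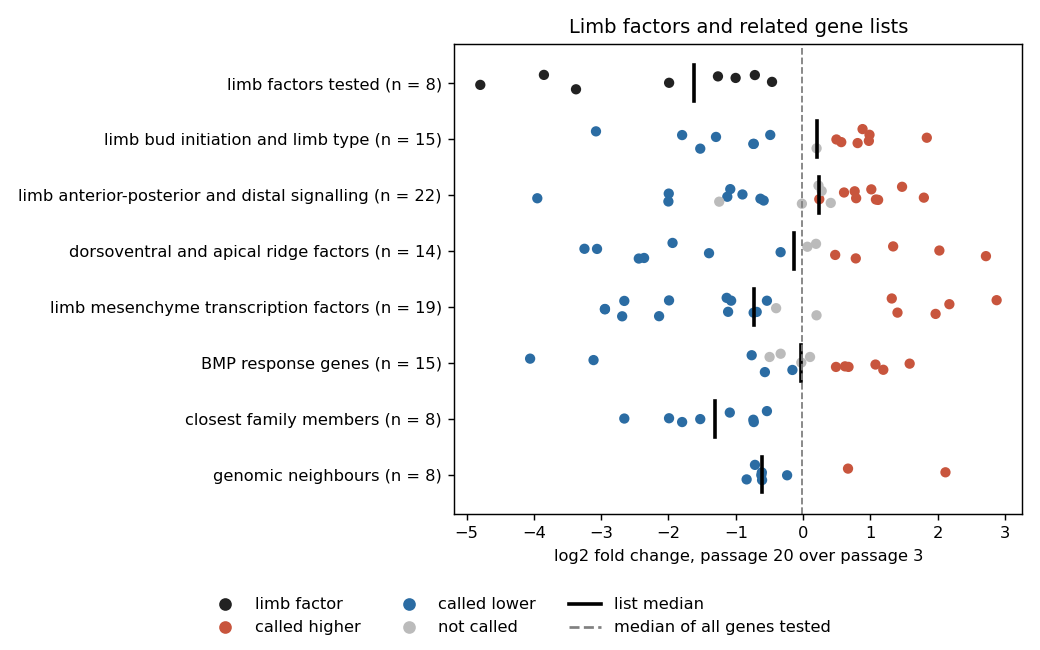
Log2 fold change of passage 20 over passage 3 for each tested gene, by list, with list medians as black bars and the median of all genes tested as a dashed line; red and blue points passed the test as higher and lower, grey points did not, and limb factors are in black without a test. All 8 limb factors and all 8 tested genes of the list of close relatives lie below 0, while the pathway lists spread to both sides. The factors and these lists were chosen with earlier results of these data known.

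The nearest protein-coding genes on either side of the 9 loci that do not overlap them were mostly too scarce to test. Ext2, which overlaps Alx4, and Rsrc1, which overlaps Shox2, are not among them. Of 18 neighbours, 8 were tested, of which 2 were higher and 6 lower, where 74.3% of all genes tested were called, 37% higher and 37.3% lower; how they differed from the limb factors was not tested. Around Tbx4, Brip1, a DNA repair helicase gene 142.0 kb away, was at 17.0 ± 0.562 and 14.4 ± 1.38 CPM, with an adjusted p of 0.0487 by edgeR's test that was lost in 9 of 13 alternatives (up to 0.174). On the other side of Tbx4, beyond the scarce neighbour Gm11444, lies Tbx2 (85832551 to 85841948). Tbx2 is not among the 18 neighbours and is named here for its position. It fell 3.48-fold from 301 ± 10.4 to 86.2 ± 21.3 CPM. Around Alx4, Accs fell 1.53-fold from 14.7 ± 1.08 to 9.60 ± 0.129 CPM, and around Pitx1, H2afy, a histone variant gene, 1.53-fold from 160 ± 2.86 to 105 ± 6.80 CPM. Stx18 next to Msx1, Sptlc1 next to Msx2 and Mvb12b next to Lmx1b fell 1.64-fold, 1.54-fold and 1.79-fold, and Zbtb43 on the other side of Lmx1b rose 1.59-fold. Insig2, a regulator of sterol synthesis 696.4 kb from En1, rose 4.33-fold from 25.7 ± 1.89 to 112 ± 13.2 CPM. Apart from Brip1, the adjusted p-values were at most 0.00028 (edgeR quasi-likelihood, Benjamini-Hochberg). The other 10 neighbours (Gm11444, Catsper3, Rassf9, Lrriq1, Gm10803, Cytl1, Drd1, Veph1, Gm17402 and Marco) had a mean below 1 CPM in both passages.

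Genes with the closest pattern over the 6 libraries were found for each tested factor as the smallest root-mean-square difference in centred log2 CPM, among 13216 candidates. This is a description in which all genes share the same libraries and the same 2 groups. For Tbx4 the nearest were the Hox gene Hoxa10 (difference 0.107), at 40.4 CPM at passage 3 and 2.60 CPM at passage 20, and Id4 (0.110). For Alx4 they were C1qtnf3 (0.115), at 67.9 and 2.43 CPM, and the cadherin gene Cdh4 (0.187). Pitx1 was nearest to Nkapd1 (0.0303) and Pdzd8 (0.0316), Msx1 to Cttnbp2nl (0.0257) and Brpf1 (0.0268), and Msx2 to Ccdc102a (0.0326) and Lrrc58 (0.0350). Shox2 was nearest to Mul1 (0.0787) and Slc30a1 (0.0793), Alx1 to Ccdc89 (0.0971) and Hdhd3 (0.200), and Lmx1b to Spock1 (0.268) and Cracr2a (0.279). Among the factors themselves, Pitx1 and Msx1 were closest (0.153), then Msx1 and Msx2 (0.164), and Tbx4 was closest to Alx4 (0.482).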

How the data were processed

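Counts per gene were deposited by the authors for 3 libraries at passage 3 and 3 at passage 20, and the tools listed in the submitters' processing notes are DESeq2, HTSeq, SAMtools and HISAT2 2.0.5, with the build GRCm38. What each did, and whether counting used strand, is not stated there. The authors also deposited values on a log2 scale whose transformation is not stated; these were used only as an alternative and only for differences within a gene. Tables of the whole series repeated these values and were left out.

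GENCODE M21 (GRCm38) supplied positions, names and exon lengths for 53706 of 53801 identifiers; the other 95 took 0.00623% of counts. Sequences before gene starts came from RefSeq on GRCm38.p6. Low-count genes were removed with filterByExpr (minimum count 10), and 15143 genes were scaled with TMM factors (0.873 to 1.13) and compared by the robust quasi-likelihood test of edgeR 4.0.16 in R 4.3.3, with Benjamini-Hochberg adjustment over all of them at 0.05. The standard error of a fold change came from its F statistic. A prior count of 2 entered log2 CPM. Total counts of 11387738 to 17721788 per library set the precision, and no molecular identifiers are named, so floors cover counting error only. The test was also run on counts simulated with far fewer changed genes than were called here. That run, whose outcome is not reported here, cannot vouch for the scaling or for a spread that may be technical.

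Groups follow the passage given in each title. The 9 factors and all lists were chosen with earlier results of these data known. Genes named were all 9 factors, for each list up to 3 called genes each way (lowest adjusted p) at a mean of at least 1 CPM, a set of further genes (Tbx5, Prrx1, Fgf10, Shh, Fgf8, Hand2, Wnt7a, Grem1, Gli3, Sox9, Bmp4 and Id1), all genomic neighbours, and the 2 nearest genes by pattern; some genes that this rule names are not reported here. Alternatives were RLE size factors, library sizes only, DESeq2 1.42.0, omitting the low-count filter, a filter of 1 CPM in 3 libraries, a replicate block and each library left out; limma 3.58.1 on the deposited log2 values was added after seeing the data.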

Additional observations from a re-analysis of the deposited data

How the results depend on the processing

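The log2 changes of the 8 factors tested kept their sign under every alternative run (Lmx1b was dropped at 1 CPM in 3 libraries). With library sizes only, Tbx4 was at -4.18, Pitx1 at -1.33, Alx4 at -5.12, Msx1 at -1.04, Msx2 at -0.79 and Shox2 at -1.59, genes called higher were 3528 and genes called lower 8273, and Hand2 turned to -0.090; this scaling moved the median of all genes by -0.33. With limma on the deposited log2 values, Tbx4 was at -3.68, Alx1 at -1.53, Alx4 at -4.39 and Lmx1b at -0.80; the cause was not tested. Leaving out each library in turn, the Alx1 log2 fold change ran from -4.24 to -2.86 and the Lmx1b log2 fold change from -2.99 to -1.51. Without a low-count filter, 1 family member was called higher. With the replicate block, genes called higher were 5521 and genes called lower 5582. Deviations of same-numbered libraries correlated at 0.0143, -0.0273 and 0.0454, and those of different-numbered libraries at -0.0440 to 0.0383. These values show no pairing by number, but cannot exclude it where the spread within a passage may be technical. Of 48 named genes tested, 44 kept their call under all alternatives and 1 turned its sign. Depth limits Alx1, Lmx1b and En1, with 6, 9 and 17 counts in all at passage 20.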
